A study of Homo sapiens with 6 samples.

Results

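The genes described here encode the machinery that duplicates DNA and repacks it into chromatin: the complexes that mark and license replication origins, the helicase that unwinds DNA, the polymerases, the sliding clamp and its loader, the enzymes that finish the lagging strand, the proteins that guard the fork, and the histone chaperone CAF1. The set is a fixed list of 54 gene symbols, grouped by complex. All 54 were measured, out of 18417 genes tested. Each gene was read from a probe set annotated to it alone, and a gene with several was read from its brightest. CLSPN was the only member with more than 1.

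RNA came from WM164, a human melanoma line with mutant BRAF, started from a lymph node metastasis. The Parent group was 3 samples given the vehicle DMSO. The IDTC group (induced drug tolerant cells) was 3 samples given 500 nM PLX4032, the BRAF inhibitor vemurafenib, for 16 days, with fresh inhibitor every 3 days. All 6 samples were this 1 line in the same medium. How long DMSO was given is not stated in the labels. Nor do they say whether the samples of a group were separate cultures, so the spread behind each p-value may be technical.

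In G1 phase the origin recognition complex (ORC), CDC6 and CDT1 load rings of MCM2 to MCM7 onto DNA, which licenses an origin. At the start of S phase, kinases and firing factors attach CDC45 and the GINS complex to each ring, which makes the active CMG helicase. Polymerase alpha with primase starts each strand, polymerase epsilon extends the leading and polymerase delta the lagging strand, and both work with the PCNA clamp that RFC loads. Many of these genes are known targets of E2F transcription factors, which are released when cyclin-dependent kinases phosphorylate RB, a step that growth factor and MAPK signalling promote.

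Promoter windows of the members are shown first, because many of these genes are known E2F targets. Windows of 300 bases (250 before and 50 after the annotated start) were taken from RefSeq on GRCh38.p14. The table held 60 windows for 47 members, 10 of which had several. It held none for MCM4, MCM5, GINS4, POLD3, RPA2, RPA3 and DNA2. An E2F-type match was any of TTTCCCGC, TTTGGCGC, TTTCGCGC or TTTGCCGC on either strand. The following lines give, on the strand of the gene and from 5′ to 3′, the 100 bases before the start for the 7 members with the largest falls among those with a match lying wholly in that stretch. RFC1, whose level did not pass the test, stands after them, and last come 20 bases around the match just after the start of CDC6, the member with the largest fall. Capitals mark the matches on either strand.
POLE, chr12:132687343-132687442, minus strand: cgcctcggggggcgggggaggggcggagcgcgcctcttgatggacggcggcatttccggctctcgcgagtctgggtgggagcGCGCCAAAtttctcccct
GINS2, chr16:85688955-85689054, minus strand: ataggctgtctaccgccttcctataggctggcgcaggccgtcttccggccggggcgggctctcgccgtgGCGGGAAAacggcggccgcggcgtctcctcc
TIPIN, chr15:66356686-66356785, minus strand: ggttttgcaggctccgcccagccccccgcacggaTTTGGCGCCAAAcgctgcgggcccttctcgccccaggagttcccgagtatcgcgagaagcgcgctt
RFC3, chr13:33818049-33818148, plus strand: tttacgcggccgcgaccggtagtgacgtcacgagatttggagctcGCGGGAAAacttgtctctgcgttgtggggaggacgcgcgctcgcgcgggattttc
PCNA, chr20:5126623-5126722, minus strand: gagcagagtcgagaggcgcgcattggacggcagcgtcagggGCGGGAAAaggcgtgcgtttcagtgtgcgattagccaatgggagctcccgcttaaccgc
POLA2, chr11:65261862-65261961, plus strand: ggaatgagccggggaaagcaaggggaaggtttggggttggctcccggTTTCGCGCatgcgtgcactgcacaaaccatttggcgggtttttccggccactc
MCM6, chr2:135876444-135876543, minus strand: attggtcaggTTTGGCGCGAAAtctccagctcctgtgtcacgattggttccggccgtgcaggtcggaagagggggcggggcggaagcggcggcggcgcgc
RFC1, chr4:39366363-39366462, minus strand: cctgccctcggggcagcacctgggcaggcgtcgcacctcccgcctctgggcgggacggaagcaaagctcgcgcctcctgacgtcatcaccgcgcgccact
CDC6, chr17:40287880-40287899, plus strand: ttcggaTTTGGCGCgagcgc

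An E2F-type match was present in 23 of the 60 windows of members (38.3%), against 4.15% of 20109 windows of the genes tested and 3.31% of all 35116 windows in the table. The windows of the members were slightly richer in G and C (median 64.3%, against 62.7% for the genes tested), and among 6037 windows of other genes with 59.9% to 69.1% G and C, 5.09% held a match. Of 31 matches in all, 20 began within the 100 bases before the start and 5 after it. CCAAT, on either strand, was found in 51.7% of the windows of members and 34.6% of those of the genes tested, and TTTGAA, the letters of the CHR element found in many mitotic gene promoters, in 3.33% and 12.3%. Of the 31 E2F-type matches, 8 overlapped another E2F-type match, as in TIPIN and MCM6, and 1 overlapped a CCAAT or TTTGAA match. A match is a description of letters, not evidence of a bound factor.

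In the drug-tolerant cells 50 of the 54 members fell, where 24.9% of all genes fell. The threshold was an adjusted p of 0.05 (limma, Benjamini-Hochberg over the 18417 genes). The 4 members not called were ORC3, ORC4, RFC1 and RPA1, where 53.4% of all genes were not called. No member rose by limma, and 0 were higher at an unadjusted p under 0.05. A fall of 2-fold or more was found for 35 members, against 5.4% of all genes, and one of 4-fold or more for 10 members, against 0.787%. The median log2 fold change, IDTC minus Parent, was -1.28 (2.42-fold lower), while that of all genes was -0.01. Arrays of the 2 groups did not overlap for the same 50 members, a pattern that 28.7% of all genes showed in this direction. In a bulk RNA sample, fewer cells in S phase and less of each RNA per cell cannot be told apart.

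**Figure D1:**
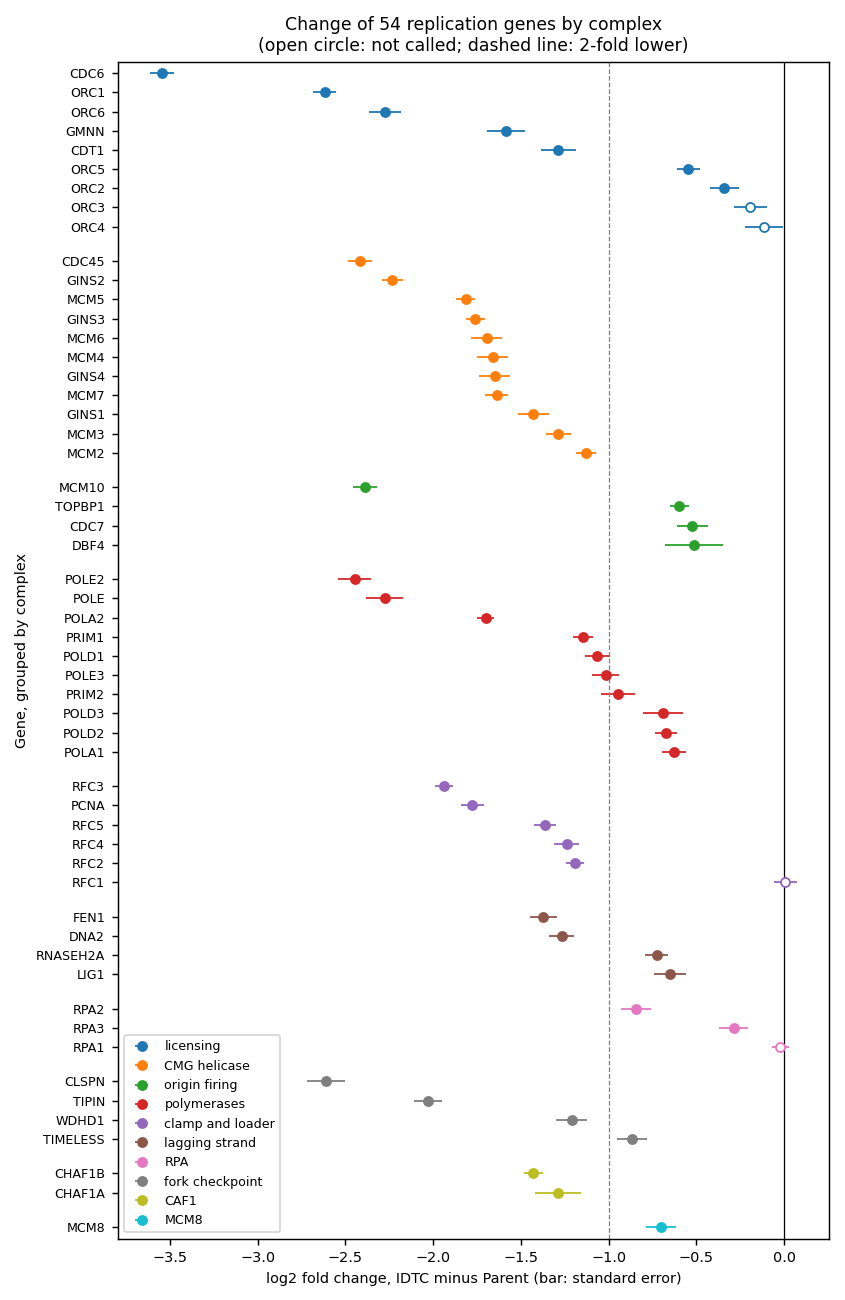
Log2 fold change (IDTC minus Parent, horizontal axis, with standard error bars) of each of the 54 members, grouped and coloured by complex. All 11 helicase genes lie left of the dashed 2-fold line, while ORC3, ORC4, RFC1 and RPA1 are open circles near 0.

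The fall was seen on each of the 3 IDTC arrays. Against the Parent mean of each gene, the median of the members was -1.18 in IDTC 1, -1.27 in IDTC 2 and -1.34 in IDTC 3. IDTC 3 held the lowest of the IDTC values for 39 of the 54 members, against 42.7% of all genes. Without IDTC 3 the median of the members was -1.22. The spread between arrays of one group was small, with an SD under 0.2 in both groups for 49 members.

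**Figure D2:**
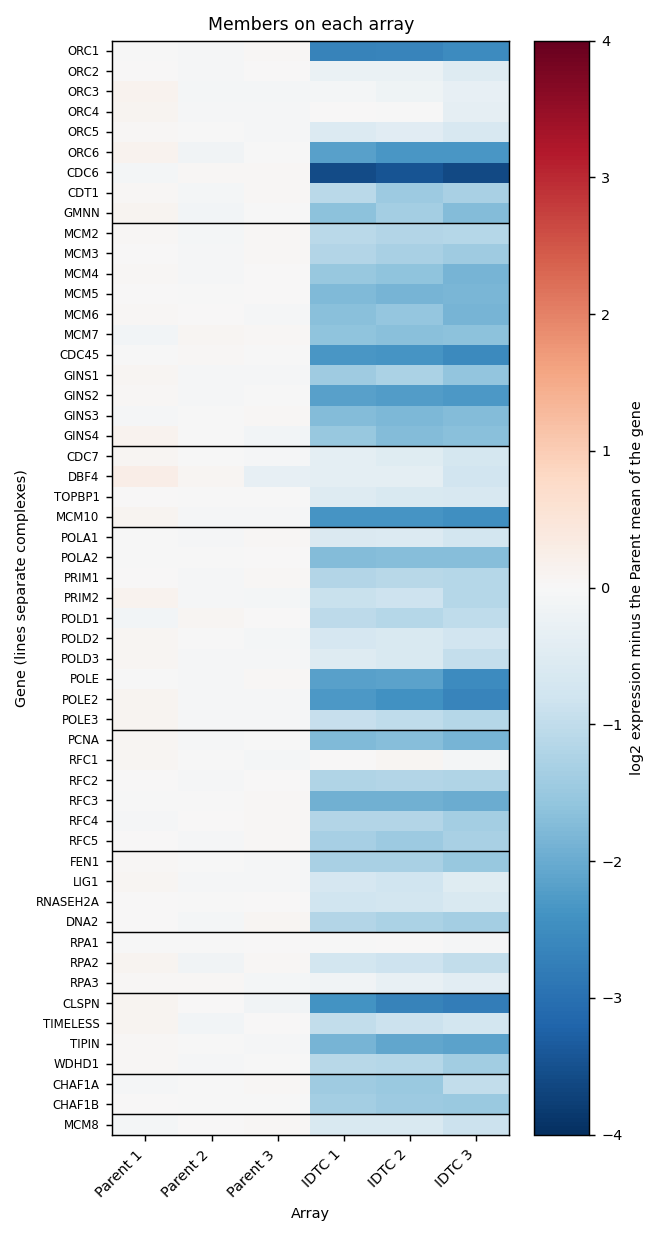
Log2 expression of each member on each of the 6 arrays, minus the Parent mean of that gene, as a colour from blue (lower) to red (higher), with lines between complexes. The IDTC columns are blue for nearly every gene, darkest for CDC6, and close to white for RFC1, RPA1, ORC3 and ORC4.

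Among the 9 licensing genes, 7 fell and 2 were not called. CDC6, the ATPase that joins ORC to recruit the helicase, had log2 values of 10.32, 10.44 and 10.47 in Parent and 6.84, 6.96 and 6.80 in IDTC arrays. The groups lay far apart. CDC6 fell by 3.55 ± 0.07 (SE; 11.7-fold, adjusted p = 1.5e-07), the largest change of the 54. ORC1, the ORC subunit whose protein level cycles, read 8.97, 8.94 and 9.03 in Parent and 6.29, 6.32 and 6.46 in IDTC arrays, and fell by 2.62 ± 0.06 (6.15-fold, adjusted p = 3.1e-07). ORC6, the smallest and most loosely held subunit, read 8.46, 8.16 and 8.30 against 6.14, 5.99 and 5.97, and fell by 2.27 ± 0.09 (4.84-fold, adjusted p = 1.6e-06).

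The other ORC subunits form the stable core, and their changes were small. ORC5 fell by 0.55 ± 0.06 (adjusted p = 2.9e-04), and ORC2 fell by 0.34 ± 0.08 (adjusted p = 0.011). ORC3 measured 9.06 ± 0.13 (SD, n = 3) in Parent and 8.86 ± 0.13 in IDTC cells, and ORC4 8.02 ± 0.09 and 7.91 ± 0.21. For both genes the groups overlapped, with adjusted p of 0.14 and 0.44. The change of ORC1 minus that of ORC2 was -2.28 ± 0.14 on the log2 scale. For ORC6 minus ORC4 it was -2.16 ± 0.10, and for CDC6 minus ORC2 it was -3.21 ± 0.09. In each of these pairs the exact permutation test (2-sided) gave p = 0.1, the smallest that 3 arrays against 3 allow.

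CDT1, which brings the MCM ring to ORC, and geminin (GMNN), which blocks CDT1 after S phase has begun, both fell. CDT1 read 8.20, 8.07 and 8.19 in Parent and 7.07, 6.69 and 6.84 in IDTC arrays, and fell by 1.29 ± 0.10 (adjusted p = 3.4e-05). GMNN read 8.53, 8.32 and 8.38 against 6.77, 7.04 and 6.67, and fell by 1.59 ± 0.11 (adjusted p = 1.6e-05). The change of CDT1 minus that of GMNN was 0.30 ± 0.20 (exact permutation p = 0.4).

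**Figure D3:**
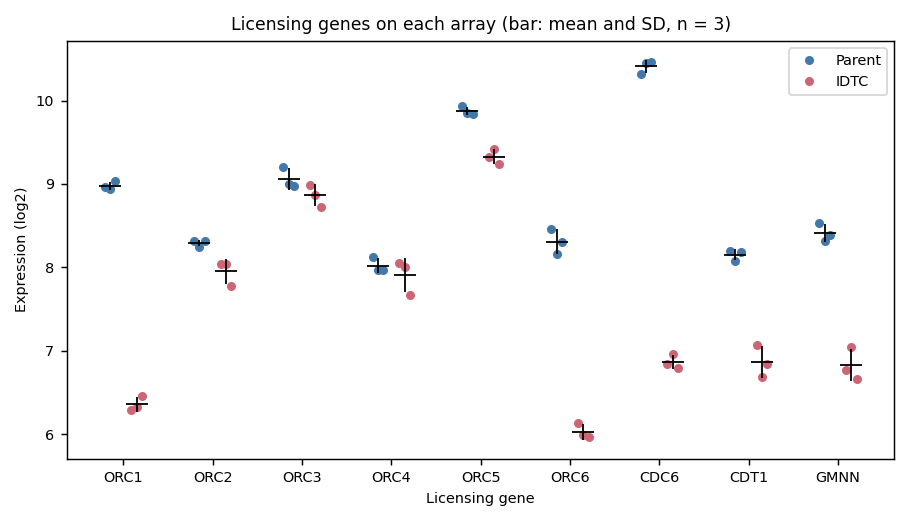
Log2 expression of the 9 licensing genes on each array (points), with the mean and SD of each group as black marks. Groups are far apart for CDC6, ORC1 and ORC6 and overlap for ORC3 and ORC4.

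All 11 genes of the CMG helicase fell, each by 2-fold or more (median -1.66). Across the 6 genes of the MCM ring the changes ran from -1.13 ± 0.06 for MCM2 to -1.82 ± 0.05 for MCM5. MCM5 read 9.91, 9.88 and 9.94 in Parent and 8.13, 8.06 and 8.09 in IDTC arrays (adjusted p = 4.8e-07), and MCM7 10.79, 10.98 and 10.95 against 9.28, 9.25 and 9.27. MCM4 (-1.66), MCM6 (-1.69) and MCM3 (-1.29) lay between.

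CDC45, which joins the ring when an origin fires, fell furthest within the helicase. It read 10.19, 10.25 and 10.19 in Parent and 7.87, 7.83 and 7.67 in IDTC arrays, and fell by 2.41 ± 0.07 (5.33-fold, adjusted p = 4.5e-07). All 4 GINS genes, which clamp CDC45 to the ring, fell: GINS2 (-2.23 ± 0.06), GINS3 (-1.76 ± 0.05), GINS4 (-1.65 ± 0.09) and GINS1 (-1.43 ± 0.09). The change of GINS2 minus that of GINS3 was -0.47 ± 0.06 (exact permutation p = 0.1, the smallest possible). MCM8, a relative of the ring subunits that works in homologous recombination and not in the CMG helicase, fell by 0.70 ± 0.09. The change of MCM2 minus that of MCM8 was -0.43 ± 0.10 (exact permutation p = 0.1).

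The 4 origin firing genes fell, but only MCM10 by 2-fold or more. MCM10, needed to activate the assembled helicase, went from 8.95, 8.77 and 8.79 to 6.49, 6.49 and 6.37, and fell by 2.39 ± 0.07 (adjusted p = 5.0e-07). The scaffold TOPBP1 (-0.60 ± 0.06) and the firing kinase CDC7 (-0.52 ± 0.09) fell as well. DBF4, the activating subunit of CDC7, was dim and variable, at 5.91, 5.73 and 5.31 in Parent and 5.27, 5.24 and 4.90 in IDTC arrays. It fell by 0.51 ± 0.17 (adjusted p = 0.039), but lost that call when any array but Parent 3 was left out, with adjusted p of 0.12 without Parent 1 or Parent 2, 0.055 without IDTC 1, 0.065 without IDTC 2 and 0.11 without IDTC 3. The change of CDC7 minus that of DBF4 was -0.01 ± 0.15 (exact permutation p = 1).

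All 10 polymerase genes among the members fell and 6 of these changes reached 2-fold. Among the members, the median was -2.28 for polymerase epsilon (POLE, POLE2 and POLE3), -1.05 for polymerase alpha-primase and -0.69 for polymerase delta. The subunit genes POLE4 and POLD4 were not members. POLE4 fell by 0.64 ± 0.08 (adjusted p = 4.0e-04), less than any of these epsilon genes, and POLD4 was not called. POLE, the catalytic subunit gene of polymerase epsilon, read 8.92, 8.89 and 8.99 in Parent and 6.77, 6.78 and 6.41 in IDTC arrays, and fell by 2.28 ± 0.10 (4.85-fold). POLE2, the subunit that ties the polymerase to the helicase, read 8.59, 8.45 and 8.43 against 6.18, 6.08 and 5.86, and fell by 2.45 ± 0.09 (adjusted p = 1.3e-06). POLE3, a histone-fold subunit that also serves in a chromatin remodeller, fell by 1.02 ± 0.08, and the change of POLE2 minus that of POLE3 was -1.43 ± 0.04 (exact permutation p = 0.1, the smallest possible).

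In polymerase alpha-primase, the B subunit gene POLA2 fell by 1.70 ± 0.05, from 8.91, 8.89 and 8.94 to 7.19, 7.22 and 7.22, and the catalytic subunit gene POLA1 fell by 0.63 ± 0.07. The primase genes PRIM1 (-1.14 ± 0.06) and PRIM2 (-0.95 ± 0.10) fell too. The change of POLA1 minus that of PRIM2 was 0.32 ± 0.09 (exact permutation p = 0.1). In polymerase delta the catalytic POLD1 (-1.07 ± 0.07) and the accessory POLD2 (-0.67 ± 0.06) and POLD3 (-0.69 ± 0.11) fell. The change of POLD1 minus that of POLD2 was -0.39 ± 0.12 (exact permutation p = 0.1).

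PCNA and the 4 small RFC subunits fell, whereas the large RFC subunit did not pass the test. PCNA, the ring that holds polymerases and many repair factors on DNA, read 9.85, 9.71 and 9.76 in Parent and 8.01, 8.07 and 7.92 in IDTC arrays, and fell by 1.78 ± 0.06 (3.43-fold, adjusted p = 1.2e-06). RFC3 went from 10.21, 10.20 and 10.25 to 8.29, 8.30 and 8.24, and fell by 1.94 ± 0.05. The other small subunits, which complete the ATP-driven loader, fell as well: RFC5 (-1.36 ± 0.06), RFC4 (-1.24 ± 0.07) and RFC2 (-1.19 ± 0.05).

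RFC1 is the large subunit of the main PCNA loader, and RFC2 to RFC5 also serve in the alternative clamp loaders. Its values were 9.20, 9.10 and 9.06 in Parent and 9.14, 9.19 and 9.04 in IDTC arrays, a difference of 0.01 ± 0.07 (adjusted p = 0.94) with overlapping groups. The change of RFC3 minus that of RFC1 was -1.95 ± 0.06, and that of PCNA minus RFC1 was -1.78 ± 0.03 (exact permutation p = 0.1 for both).

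The 4 lagging strand genes fell. The flap nuclease gene FEN1 fell by 1.37 ± 0.08, from 8.49, 8.43 and 8.38 to 7.12, 7.15 and 6.91, and the nuclease-helicase gene DNA2 fell by 1.27 ± 0.07. RNASEH2A, the catalytic subunit of the enzyme that removes RNA primers and stray ribonucleotides, fell by 0.73 ± 0.06, and the ligase gene LIG1, which seals the fragments, fell by 0.65 ± 0.09.

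Replication protein A, the trimer that coats single-stranded DNA in replication and in repair, changed least among the groups with several genes (median -0.29). RPA1, its large DNA-binding subunit, read 8.70, 8.69 and 8.73 in Parent and 8.69, 8.72 and 8.65 in IDTC arrays, so the groups overlapped (difference -0.02 ± 0.05, adjusted p = 0.78). RPA2, the subunit phosphorylated under replication stress, fell by 0.84 ± 0.09 (adjusted p = 1.5e-04). RPA3, the small subunit, fell by 0.29 ± 0.08 (adjusted p = 0.024). It no longer passed without Parent 1 (adjusted p = 0.072), without Parent 2 (0.083) or without IDTC 2 (0.067). The change of RPA3 minus that of RPA1 was -0.27 ± 0.09 (exact permutation p = 0.1).

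Of the fork protection genes, all 4 fell. CLSPN encodes claspin, which carries the signal from ATR to its kinase CHEK1. It read 9.03, 8.96 and 8.80 in Parent and 6.53, 6.25 and 6.18 in IDTC arrays, and fell by 2.61 ± 0.11. A second, dimmer CLSPN probe set moved the same way, by -2.08 ± 0.10. TIPIN fell by 2.03 ± 0.08, and its partner TIMELESS fell by 0.87 ± 0.08, from 7.93, 7.72 and 7.84 to 6.84, 6.97 and 7.08. The change of CLSPN minus that of TIPIN was -0.58 ± 0.05 (exact permutation p = 0.1). WDHD1, which links the helicase to polymerase alpha, fell by 1.21 ± 0.09.

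Both CAF1 genes fell by 2-fold or more. CAF1 deposits new histones H3 and H4 behind the fork through its contact with PCNA. CHAF1B read 9.24, 9.23 and 9.23 in Parent and 7.86, 7.79 and 7.75 in IDTC arrays, and fell by 1.43 ± 0.05 (adjusted p = 1.2e-06). CHAF1A read 8.86, 8.91 and 8.97 against 7.50, 7.44 and 7.94, with IDTC 3 well above the other IDTC arrays, and fell by 1.29 ± 0.13. The change of CHAF1B minus that of CHAF1A was -0.14 ± 0.18 (exact permutation p = 0.8). RBBP4, the third CAF1 subunit, which other chromatin complexes share, measured 11.40 ± 0.03 and 11.48 ± 0.05 (adjusted p = 0.28).

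In all, 15 pairs of genes were compared in this way. For 12 of them the permutation p was the smallest possible, 0.1 (0.125 adjusted over the pairs), so no pair could pass the threshold with 3 arrays a group. CDC7 and DBF4, CDT1 and GMNN, and CHAF1A and CHAF1B were the 3 pairs above it.

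Members with and without an E2F-type match both fell for the most part. Of 23 members with an E2F-type match, 22 fell and ORC3 was not called, with a median of -1.64. Of 24 members without one, 21 fell, with a median of -1.10, and ORC1 (-2.62), CDC45 (-2.41), MCM10 (-2.39) and ORC6 (-2.27) were among them. For genes other than members, 36.8% of 761 with a match fell and 25.5% of 13431 without one. No test was made of these shares. Lack of a match means only that none of the listed strings occurred in the window, and other forms of the site were not looked for.

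**Figure D4:**
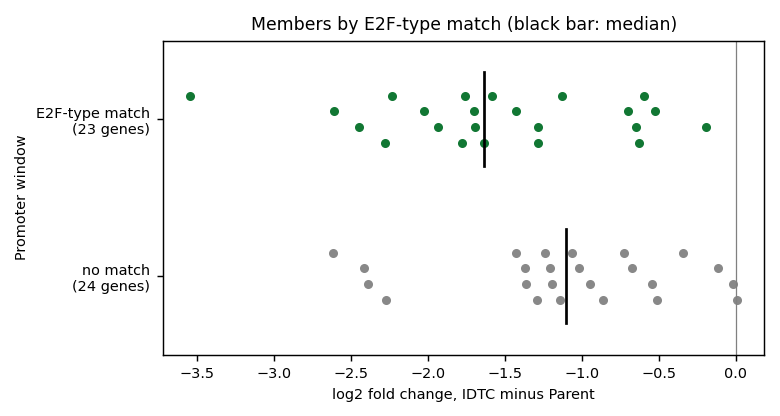
Log2 fold change of the 47 members with a promoter window, split by the presence of an E2F-type match (points are genes, black bars medians of -1.64 and -1.10). The ranges of both sets overlap.

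Other genes around the fork were counted from 9 further lists. Of the 83 measured genes on them, 51 fell and 15 rose, where 24.9% of all genes fell and 21.7% rose. The other 17 did not pass the test, and the median of the 83 was -0.35. Of 13 further initiation, helicase and subunit genes, 9 fell and 1 rose (KAT7, the histone acetyltransferase active at origins, by 0.44 ± 0.05). After quantile normalization 8 genes of this list were called lower and 2 higher. MCMBP, which stabilises newly made MCM proteins, fell by 1.37 ± 0.07. TICRR, the firing factor also called treslin, fell by 1.30 ± 0.07. POLD4, the smallest polymerase delta subunit, measured 8.89 ± 0.06 and 8.86 ± 0.11 and was not called (adjusted p = 0.80).

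Among 10 genes that control CDT1 and CDC6 turnover, 7 fell and 2 rose, where 24.9% of all genes fell and 21.7% rose. DTL, the CUL4 adaptor that destroys CDT1 on PCNA-bound chromatin, fell by 1.73 ± 0.08, and the F-box gene SKP2 fell by 1.13 ± 0.05. CUL4A fell by 0.77 ± 0.07 while its paralogue CUL4B rose by 0.52 ± 0.09. Of 6 genes that unload the helicase at the end of replication, 5 fell, led by LRR1 (-0.90 ± 0.07) and TRAIP (-0.83 ± 0.09), and UBXN7 rose by 0.50 ± 0.08.

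The ATR pathway, which claspin serves, fell in 6 of 9 measured genes and rose in 1, the clamp loader gene RAD17 (0.73 ± 0.12). Of all genes, 24.9% fell and 21.7% rose. The count of falls in the ATR list was 7 without the dimmest 40% of genes and with another variance prior. CDC25A, the phosphatase that activates CDK2, fell by 2.63 ± 0.12, CHEK1 fell by 1.64 ± 0.09 and ATR itself fell by 0.36 ± 0.09. Of 6 genes of alternative clamp loaders and cohesion establishment, 5 fell, among them DSCC1 (-2.24 ± 0.11) and ATAD5, which unloads PCNA (-1.52 ± 0.14).

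The list of translesion and repair polymerases, which copy damaged DNA or fill repair gaps, went both ways. It also held genes that are not polymerases themselves, among them RAD18, HLTF and SHPRH. Of its 16 genes 7 rose, where 21.7% of all genes rose, while 3 fell and 6 did not pass the test, with a median of 0.08. POLK, a translesion polymerase, read 7.62, 7.41 and 7.50 in Parent and 9.20, 9.16 and 8.97 in IDTC arrays, a rise of 1.60 ± 0.08 (3.03-fold, adjusted p = 5.0e-06). Its relative POLI rose by 1.15 ± 0.10 and the base excision repair polymerase POLB by 0.62 ± 0.08. The 3 that fell were RAD18 (-0.88), POLQ (-0.82) and the mitochondrial POLG (-0.24).

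Histone chaperones were counted in a similar way, beside the 24.9% of all genes that fell and the 21.7% that rose. Of 11 that act with replication, 10 fell, led by ASF1B (-1.79 ± 0.07), which hands histones to CAF1, and IPO4 (-1.58 ± 0.05), which imports them. NAP1L1 was not called (0.05 ± 0.06). Of 7 that act apart from replication, 3 rose and 4 fell: ATRX rose by 1.01 ± 0.10, UBN2 by 0.73 ± 0.07 and CABIN1 by 0.40 ± 0.06, and the centromere chaperone gene HJURP (-0.84 ± 0.07), UBN1 (-0.61 ± 0.07), DAXX (-0.35 ± 0.05) and HIRA (-0.29 ± 0.07) fell. Among 5 topoisomerase genes, TOP1 (-0.51 ± 0.06) and TOP3A (-0.49 ± 0.06) fell. TOP2A (0.23 ± 0.09) and TOP2B (0.24 ± 0.09) were not called, but 2 genes of this list were called higher after quantile normalization, without the dimmest 40% of genes, with another variance prior, after re-centring on the median of the genes tested and without IDTC 3.

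**Figure D5:**
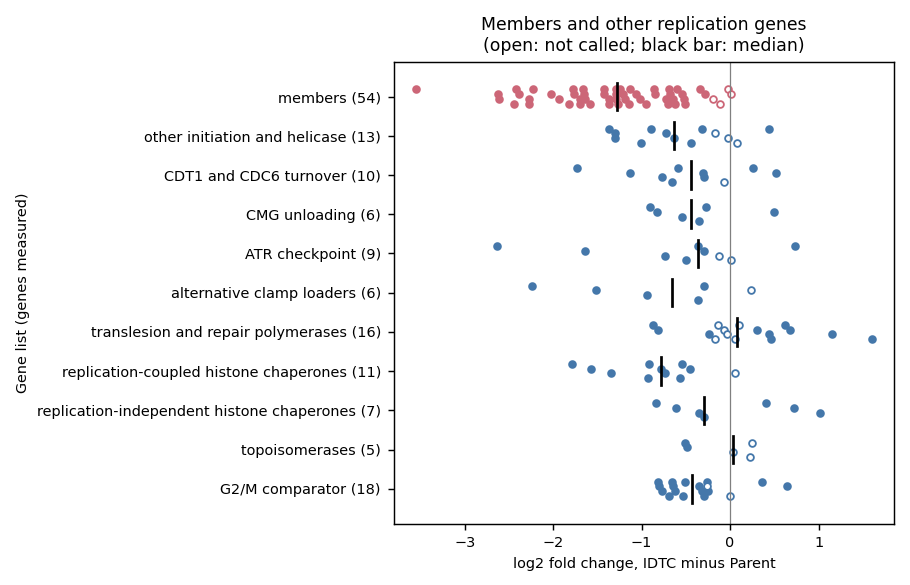
Log2 fold change (IDTC minus Parent) of the 54 members and of the genes of 10 other lists, with filled points for called genes, open points for genes not called and black bars at medians. The members have the lowest median (-1.28), and the genes of the translesion and repair polymerase list lie on both sides of 0.

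Genes of G2 and mitosis were measured beside the members. Of 18, 14 fell, 2 rose (NEK2 and CENPF) and 2 were not called (median -0.43), and none fell by 2-fold or more. Of all genes, 24.9% fell, 21.7% rose and only 5.4% fell by 2-fold or more. CDK1 (-0.81 ± 0.15) and AURKB (-0.80 ± 0.06) had the largest falls of the list. The part that the share of cycling cells has in the falls of the replication genes was not tested.

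Checks on the arrays were made with other genes. For comparison, 24.9% of all genes fell, 21.7% rose and 53.4% were not called. All 6 genes of MAPK output fell (ETV4, -4.24 ± 0.06, and SPRY4, -5.24 ± 0.16). The 7 melanocytic markers had a list mean of 10.15 to 10.19 in Parent and 10.99 to 11.16 in IDTC arrays. Of these, 5 rose (MLANA by 1.45 ± 0.05), S100B fell and MITF was not called. TYRP1 was dim in Parent arrays (4.62, 4.64 and 4.80) and read 7.83, 7.57 and 7.34 in IDTC arrays, so its rise of 2.89 ± 0.12 may be understated. Keratinocyte and endothelial markers (5 genes each) had 0 called by limma and 0 at an unadjusted p under 0.05, with list means of 4.97 to 5.20 and 5.07 to 5.19 in Parent and 5.09 to 5.28 and 5.05 to 5.14 in IDTC arrays. Of 6 fibroblast markers, LUM (-0.89 ± 0.14) and PDGFRA (-0.28 ± 0.06) fell, and the list mean was 6.26 to 6.32 in Parent and 6.11 to 6.15 in IDTC arrays. Of 6 immune markers, LYZ (-3.03 ± 0.09) and CD68 (-0.76 ± 0.05) fell, with a list mean of 6.60 to 6.64 and 5.95 to 6.04, while PTPRC, the pan-leukocyte marker, read 3.63 to 3.71 in Parent and 3.71 to 3.95 in IDTC arrays. The part of these markers in the falls of the replication genes was not tested.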

How the data were processed

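The authors deposited log2 expression values for 33297 probe sets on 6 arrays, already normalized. Per the submitters' processing notes, Affymetrix Expression Console, RMA and Partek 6.6 were used, with no role or order given, and the log2 unit was read from the range of the values. No detection call was at hand, so folds of dim genes may be understated. Array medians were 6.25 to 6.36 and interquartile ranges 3.31 to 3.60. Of the 33297 probe sets, 21214 were in the platform annotation and 12083 were not listed there. Of those listed, 19460 had 1 gene symbol and 1754 several. Symbols were checked against GRCh38.p14 gene records (19429 matched).

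Differences (IDTC minus Parent) were fitted without covariates or filter by lmFit and eBayes (limma 3.58.1, R 4.3.3; 2-sided), with Benjamini-Hochberg adjustment over 18417 genes. A fold change is a difference of mean log2 values ± SE. Pairs of genes were compared by an exact permutation test of the per-array difference, with the SE from the spread of the arrays. All members were described. From each other list the text names up to 2 called genes with the largest change, and others named there were chosen after their values were seen. Members, complexes and lists were chosen with earlier results of these data known. On simulated data with 200 changed genes, 50 at each size, limma called 60% of those with a shift of 0.5 log2. It called 90% at 1 and 100% at 2, and made 14 false calls in a fit of 18417 genes. In the deposited data far more genes were called (4592 lower and 3996 higher), which changes the adjustment. The simulated rates therefore need not hold for the deposited data. Alternatives were other scalings, a filter on dim genes, the replicate number as a block, averaged probe sets, another variance prior and leaving out each array. The number of arrays limits precision.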

Additional observations from a re-analysis of the deposited data

How the results depend on the processing

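The count of members that fell, the count that fell by 2-fold or more and the counts by complex kept their direction and stayed within 1.5 times the reported value under every alternative run, except for RPA. There the count of 2 became 1 when the arrays were re-centred on the median of the genes tested, a scaling added after seeing the data, and it ranged from 1 to 2 when single arrays were left out. That scaling moved the median of the members to -1.21. Left-out arrays gave medians of -1.30 to -1.22. The calls of DBF4 (adjusted p = 0.059) and RPA3 (0.052) were lost under it, and DBF4 was among the genes left out by the filter on the dimmest 40%. The difference between CDC7 and DBF4 turned in sign after quantile normalization (0.062) and ranged from -0.10 to 0.13 when single arrays were left out. That between CHAF1B and CHAF1A ranged from -0.23 to 0.039, the last without IDTC 3. The keratinocyte marker DSC3 was called higher without IDTC 1 (0.24, adjusted p = 0.038). The cause was not tested.

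The titles share replicate numbers 1 to 3, but deviations of same-numbered arrays correlated at 0.315, -0.192 and 0.26, so the numbers were not taken as pairs. IDTC 3 correlated best with Parent 2 (0.372), while IDTC 1 correlated best with Parent 1 (0.315). With 3 arrays a group, such correlations cannot exclude pairs. Fitted with the replicate number as a block, ORC3 was called (-0.19, adjusted p = 0.045), so 51 members were called lower, and no other member changed its call. Of all genes, 4707 were then called lower against 4592 without the block, and 4148 higher against 3996.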
